A study of Mus musculus with 8 samples.

Results

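Cells that are activated through ERK, the MAP kinase at the end of the Ras pathway, switch on genes that turn the same pathway down. The 10 genes described here come from families known for such inhibitors: 6 dual-specificity phosphatase genes (Dusp1, Dusp2, Dusp4, Dusp5, Dusp6 and Dusp10), 2 Sprouty genes (Spry1 and Spry2) and 2 Spred genes (Spred1 and Spred2). They were chosen by gene name, each name had 1 row, and they are 10 of the 47069 genes in the deposited table. OT-I CD8+ T cells, mouse T cells with a transgenic receptor for an ovalbumin peptide, were activated with 10 nM of the low affinity peptide SIITFEKL (OVA-T4) together with 5 ng/ml of recombinant TGFβ, or with the peptide alone, and their RNA was sequenced after 24 h. The groups were OVA-T4 + TGFβ (n = 4 libraries) and OVA-T4 (n = 4 libraries), labelled biological replicates 1 to 4 in both groups. The question was how these transcripts differ with TGFβ in cells activated with this peptide. All cells came from lymph nodes, were labelled WT and saw the peptide, so no library shows the cells before activation. The methods name both OT-I and OT-I Rag1-/- mice, age- and sex-matched, without saying which gave these RNAs, and describe no sorting of the cells.

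MAP kinases are active only while a threonine and a tyrosine in their activation loop both carry phosphate. Dual-specificity phosphatases remove both phosphates: Dusp1, Dusp2, Dusp4 and Dusp5 encode inducible enzymes of the nucleus, Dusp6 encodes a cytoplasmic enzyme selective for ERK, and Dusp10 encodes an enzyme that prefers p38 and JNK to ERK. Sprouty and Spred proteins act further up, between the receptor and Raf, and Spred proteins bring the Ras inactivator neurofibromin to the membrane. Since ERK activity drives transcription of many of these genes, their RNA is commonly read beside that of early genes such as Egr1 and Fos, but RNA is not a measure of the phosphorylation of ERK itself.

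With TGFβ, 4 of the 10 transcripts were higher and none was lower. Dusp4, Dusp10, Dusp2 and Dusp1 were higher in OVA-T4 + TGFβ libraries, by 4.20-fold, 2.75-fold, 1.64-fold and 1.37-fold as ratios of mean FPKM (fragments scaled to the length of the gene and the depth of the library). Dusp5, Dusp6 and all 4 Sprouty and Spred transcripts did not pass the test. At an unadjusted p under 0.05 limma gave the same counts, 4 higher and 0 lower, as did limma voom on the solved reads after adjustment. Quantile normalization gave 3 higher and 3 lower, and the replicate number as a block 4 higher and 1 lower (limma, adjusted p). Over all 12879 genes tested, quantile normalization gave 2987 higher and 3400 lower, and the block 4569 higher and 3266 lower. A call means an adjusted p under 0.05 from limma on log2(FPKM + 0.5), two-sided, with Benjamini-Hochberg adjustment over the 12879 genes that averaged 0.5 FPKM or more, and all 10 members were among these. The comparison moved much of the transcriptome: 51.0% of all genes tested were called, 30.7% as higher and 20.2% as lower with TGFβ, and beside these shares 4 calls among 10 genes is no result about the members as a set. Calls in the higher direction were 60.3% of all calls, against 47.5% with median of ratios scaling and 46.8% with quantile normalization. The members' median log2 fold change was 0.04, and that of all genes tested was 0.08. Their 4 called genes were also those whose groups did not overlap, which was true of 48.1% of all genes tested.

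By mean level in OVA-T4 + TGFβ libraries the order was Dusp2 (268 FPKM), Dusp5 (75.0), Dusp4 (38.0), Dusp10 (32.6), Spry1 (10.5), Spred2 (8.61), Dusp6 (8.47), Dusp1 (7.81), Spred1 (4.65) and Spry2 (1.26). In OVA-T4 libraries it was Dusp2 (163 FPKM), Dusp5 (85.0), Dusp10 (11.9), Spry1 (11.4), Spred2 (9.46), Dusp4 (9.05), Dusp6 (7.33), Dusp1 (5.71), Spred1 (5.39) and Spry2 (1.86). FPKM is per gene length, so these levels can be set side by side. Neighbours from Spry1 to Dusp1 overlapped in their libraries with OVA-T4 + TGFβ, and neighbours from Dusp10 to Spred1 overlapped with OVA-T4. Dusp4 was thus the member that changed place, lying among Spred2 and Dusp6 with the peptide alone and above Dusp10 with TGFβ.

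Depth was similar in all libraries, at 35586261 to 40040249 reads with OVA-T4 + TGFβ and 35839293 to 41597929 reads with OVA-T4, as solved from the FPKM values. One read in a gene of 1 kb was worth 0.0240 to 0.0281 FPKM. CD8 T cell markers were abundant in every library, with Cd8a at 485 to 537 FPKM with OVA-T4 + TGFβ and 349 to 441 FPKM with OVA-T4. Of the 10 CD8 T cell markers 7 were called higher and 1 lower, which was Cd2 (-0.30, limma, adjusted p = 0.00819). Of 3 CD4 T cell markers, Cd4 stayed at 0.753 to 1.43 FPKM over all 8 libraries and was not called, nor was Cd40lg. The third, Zbtb7b, was called higher (0.73, limma, adjusted p = 0.0134). Markers of other cells differed in level. The summed level of 10 macrophage and monocyte markers was 11.0 to 47.8 FPKM with OVA-T4 + TGFβ and 4.85 to 13.7 FPKM with OVA-T4, with 2 of its 4 tested genes called higher and 2 not called. For 10 dendritic cell markers it was 374 to 490.4 FPKM with OVA-T4 + TGFβ and 207 to 334 FPKM with OVA-T4, most of it Ccr7, which T cells also express, and all 5 tested genes were higher. Of 10 B cell markers, Ms4a1 was at 0 in every library, and the 2 that could be tested, Cd79a and Cd79b, were higher with TGFβ. Of 6 NK cell markers, Ncr1 and Klrb1c were near 0, at 0.135 FPKM or less in every library, while the sum was 81.1 to 103 FPKM with OVA-T4 + TGFβ and 3.05 to 9.91 FPKM with OVA-T4, most of it Kit, which encodes the receptor for stem cell factor and which rose by 4.62 on the log2 scale (limma, adjusted p = 4.80e-06), with 2 other tested genes not called. Of 8 stromal and endothelial markers the sum was 22.6 to 31.5 FPKM with OVA-T4 + TGFβ and 25.4 to 34.5 FPKM with OVA-T4, nearly all of it Pecam1, which was not called, and Pdpn was called higher (1.34, limma, adjusted p = 0.00666) at 1.99 FPKM at most. Most called markers were higher with groups that did not overlap, like the 4 called phosphatase genes. These were Cd3d, Cd3e, Cd247, Cd8a, Cd5, Lck, Zbtb7b, Cd79a, Cd79b, Itgax, H2-Aa, Ccr7, Kit and Pdpn. The others called higher, Lyz2, C1qb, H2-Ab1, Cd74 and Cd3g, had groups that overlapped. Lyz2 was at 5.91 to 28.8 FPKM with OVA-T4 + TGFβ and 1.37 to 6.53 FPKM with OVA-T4. Cd2 was lower, and its groups did not overlap. What part the called markers have in the results of the phosphatase genes was not tested. In RNA from whole cultures, fewer cells of a type and less RNA per cell cannot be told apart.

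**Figure D1:**
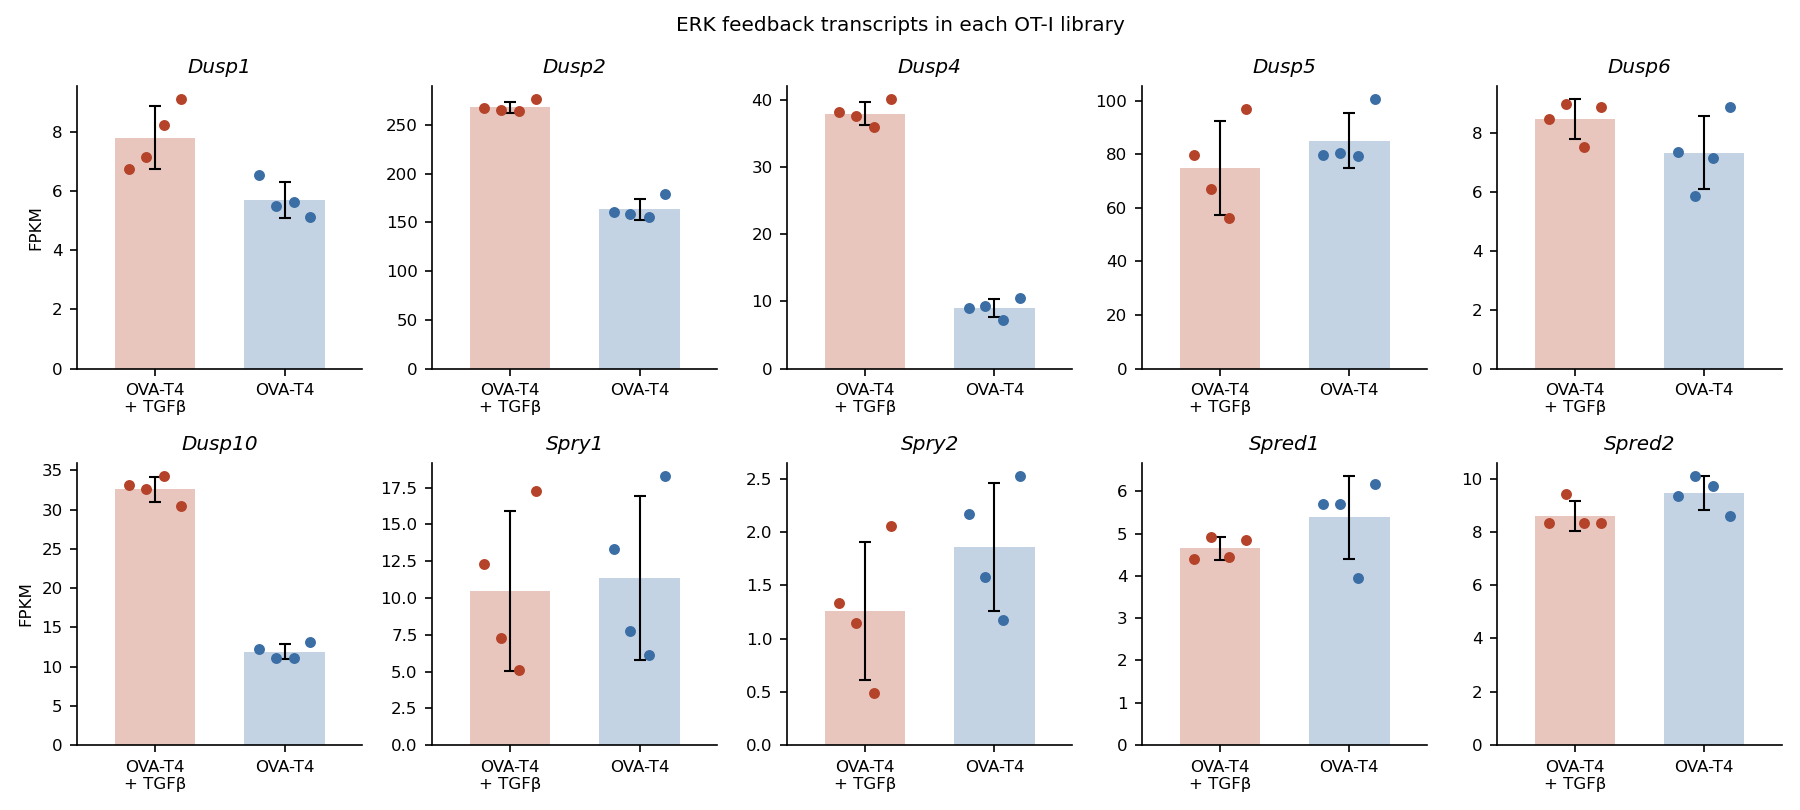
FPKM of each of the 10 transcripts (y axis, from 0) in the 4 OVA-T4 + TGFβ libraries and the 4 OVA-T4 libraries (x axis, replicates 1 to 4 from left to right within a group). Bars are means and error bars SD; the points of the groups do not overlap for Dusp1, Dusp2, Dusp4 and Dusp10, while Spry1 and Spry2 spread widely within both groups.

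Promoters of 9 members were found in the RefSeq table (GRCm38.p6, 250 bases before to 50 after the start), and 4 stretches are shown to set 3 genes that rose with TGFβ (Dusp1, Dusp2 and Dusp10) beside Dusp5, which was not called. Dusp4, the member that rose most, is not among those shown. Dusp1, Dusp2 and Dusp5 were the only members with a match to any motif searched. Capitals mark matches, on either strand, to motifs of factors that signal-dependent genes are known for. In the Dusp1 stretch (chr17:26508573-26508672, minus strand) they are a cAMP response element (CRE, TGACGTCA) at bases -143 to -136 and an E-box (CACGTG) at bases -126 to -121, in the Dusp2 stretch (chr2:127336009-127336108, plus strand) an E-box at bases -109 to -104 and an EGR motif (GCGNGGGCG) at bases -98 to -90, and in the Dusp5 stretch (chr19:53529025-53529124, plus strand) adjoining CArG boxes, the sites of serum response factor, at bases -82 to -73 and -72 to -63. The Dusp10 stretch (chr1:184034281-184034380, plus strand), the 100 bases up to the start, held no match to any motif searched. The RefSeq starts of Dusp1 and Dusp10 lie inside the wider intervals given below for these genes, which come from the GENCODE M21 annotation.
Dusp1: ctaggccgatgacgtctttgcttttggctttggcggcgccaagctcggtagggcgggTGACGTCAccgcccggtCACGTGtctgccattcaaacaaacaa
Dusp2: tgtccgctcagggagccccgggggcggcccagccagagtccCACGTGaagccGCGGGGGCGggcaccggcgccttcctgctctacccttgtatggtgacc
Dusp5: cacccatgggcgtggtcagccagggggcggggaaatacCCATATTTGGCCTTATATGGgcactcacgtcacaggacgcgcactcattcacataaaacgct
Dusp10: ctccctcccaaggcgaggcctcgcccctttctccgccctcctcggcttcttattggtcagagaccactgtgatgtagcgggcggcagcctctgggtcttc

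Over 32851 RefSeq promoters of the same 300 bases, 1.79% held the CRE, 7.15% the E-box, 5.55% the EGR motif and 1.63% a CArG box. Of the 9 members, 1 held the CRE, 2 the E-box, 1 the EGR motif and 1 a CArG box. AP-1 (TGANTCA, 7.81% of promoters), ETS (CCGGAAGT, 3.89%) and a palindromic SMAD site (GTCTAGAC, 0.213%) had no match in the windows of the 9 members. These are matches of letters, and no binding was measured in this study.

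Dusp4 had the largest difference of the 10. It encodes MKP-2, a nuclear phosphatase of ERK and JNK (ENSMUSG00000031530, chr8:34807297-34819894, plus strand, mm10 as for every gene position here). Its level was 38.3, 37.6, 36.0 and 40.1 FPKM in OVA-T4 + TGFβ replicates 1 to 4, against 8.98, 9.38, 7.30 and 10.5 FPKM in OVA-T4 replicates 1 to 4. The lowest library with TGFβ, 36.0 FPKM, stood far above the highest without it, 10.5 FPKM. The means were 38.0 ± 1.69 FPKM with OVA-T4 + TGFβ and 9.05 ± 1.34 FPKM with OVA-T4 (SD, n = 4 each), a log2 fold change of 2.02 (SE 0.10, limma, adjusted p = 1.13e-06), which ranked 109 from the highest of all 12879 genes. The exact permutation test over the libraries, two-sided, gave p = 0.0286, the smallest that 4 libraries against 4 allow, and the same value for each of the other 3 called members. Of the 10 members, only Dusp2 and Dusp5 were more abundant than Dusp4 in the OVA-T4 + TGFβ libraries. Over the 8 libraries the genes whose levels ran closest to it were Lgals9, encoding galectin-9 (Pearson r = 0.9992, 106 FPKM with OVA-T4 + TGFβ and 66.6 FPKM with OVA-T4), Igfbp4, encoding an IGF binding protein (r = 0.9989, 255 and 12.1 FPKM in the same groups), and Itgb2, encoding the β2 integrin chain (r = 0.9988, 322 and 172 FPKM). These correlations mainly follow the difference between the groups and are given as a description.

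Dusp2 was the most abundant member. It encodes PAC-1, a nuclear phosphatase first found in activated T cells (ENSMUSG00000027368, chr2:127336159-127338376, plus strand). It had 267, 265, 264 and 276 FPKM in OVA-T4 + TGFβ replicates 1 to 4, against 161, 158, 155 and 179 FPKM in OVA-T4 replicates 1 to 4. The libraries of a group lay close together and the groups far apart. This was a log2 fold change of 0.71 (SE 0.05, limma, adjusted p = 9.23e-06), with means of 268 ± 5.22 FPKM with OVA-T4 + TGFβ and 163 ± 11.0 FPKM with OVA-T4 (SD, n = 4 each). Its mean over all libraries ranked 530 of the genes tested, and its share of the summed FPKM of the 10 members was 55.8 to 62.2% with OVA-T4 + TGFβ and 50.8 to 54.0% with OVA-T4.

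Dusp1 changed least among the 4. It encodes MKP-1, a nuclear phosphatase of p38, JNK and ERK (ENSMUSG00000024190, chr17:26505590-26562128, minus strand). Its level was 6.75, 7.15, 8.25 and 9.10 FPKM in OVA-T4 + TGFβ replicates 1 to 4, against 6.55, 5.50, 5.64 and 5.13 FPKM in OVA-T4 replicates 1 to 4. The lowest library with TGFβ lay just above the highest without it, both of them replicate 1. Its log2 fold change was 0.42 (SE 0.11, limma, adjusted p = 0.0117), and quantile normalization ended the call, at 0.23 with limma's adjusted p = 0.124. Its gene model overlaps Ergic1 on the other strand, at 64.1 FPKM with OVA-T4 + TGFβ and 55.3 FPKM with OVA-T4, and the sources used here do not state whether reads were counted by strand, so reads of the overlap cannot be assigned to one of them.

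Dusp5, the nuclear phosphatase that acts on ERK alone and holds it in the nucleus, was not called (ENSMUSG00000034765, chr19:53529109-53542431, plus strand). It had 79.7, 66.9, 56.2 and 97.1 FPKM in OVA-T4 + TGFβ replicates 1 to 4, against 79.6, 80.6, 79.5 and 100.5 FPKM in OVA-T4 replicates 1 to 4. The groups overlapped, and replicate 4 was the highest library in both. The log2 fold change was -0.20 with a 95% interval of -0.55 to 0.15 (limma, adjusted p = 0.305), and leaving out OVA-T4 + TGFβ replicate 4 gave -0.34, OVA-T4 + TGFβ replicate 3 gave -0.07 and OVA-T4 replicate 4 gave -0.12. That interval lies below the one of Dusp2, 0.60 to 0.83, but whether TGFβ acted differently on these genes was not tested. Summed over the 4 nuclear enzymes, the level was 389 ± 24.6 FPKM with OVA-T4 + TGFβ and 263 ± 21.9 FPKM with OVA-T4 (SD, n = 4 each), a ratio of 1.48 that fell to 1.21 without Dusp2.

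Dusp6, encoding the cytoplasmic ERK phosphatase MKP-3, was not called (ENSMUSG00000019960, chr10:99263231-99267489, plus strand). It had 8.47, 9.00, 7.53 and 8.90 FPKM in OVA-T4 + TGFβ replicates 1 to 4, against 7.37, 5.88, 7.17 and 8.90 FPKM in OVA-T4 replicates 1 to 4. Each library with TGFβ was the higher of its replicate number, though in replicate 4 by less than the digits given show. TGFβ gave a log2 fold change of 0.21 with a 95% interval of -0.06 to 0.47 (limma, adjusted p = 0.172), and it passed without OVA-T4 replicate 4, at 0.30 with limma's adjusted p = 0.0398, while it was 0.11 without OVA-T4 replicate 2.

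Dusp10 also rose. It encodes MKP-5, whose main substrates are p38 and JNK, so it stands apart from the ERK phosphatases in function (ENSMUSG00000039384, chr1:184013302-184075636, plus strand). It had 33.1, 32.6, 34.3 and 30.5 FPKM in OVA-T4 + TGFβ replicates 1 to 4, against 12.2, 11.1, 11.1 and 13.1 FPKM in OVA-T4 replicates 1 to 4. No library came near the other group. The difference was a log2 fold change of 1.42 (SE 0.07, limma, adjusted p = 1.13e-06), with means of 32.6 ± 1.62 FPKM with OVA-T4 + TGFβ and 11.9 ± 0.972 FPKM with OVA-T4 (SD, n = 4 each). A gene on the other strand that overlaps it, 1700056E22Rik, had 1.49 FPKM with OVA-T4 + TGFβ and 0.721 FPKM with OVA-T4.

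**Figure D2:**
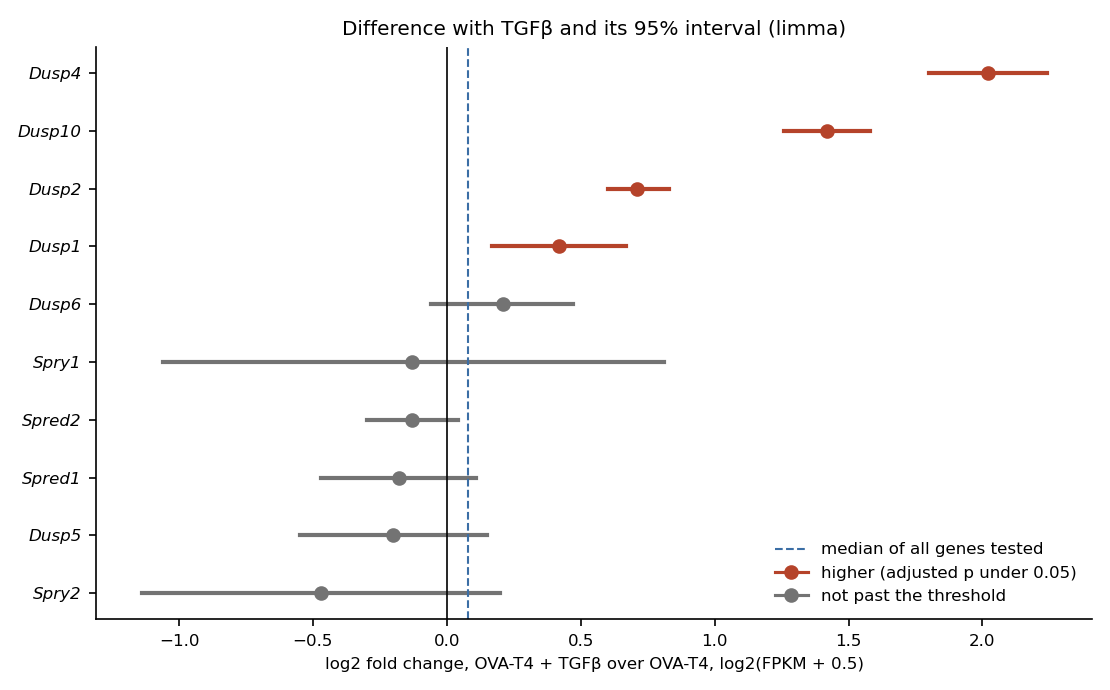
Log2 fold change of each transcript, OVA-T4 + TGFβ over OVA-T4 on the log2(FPKM + 0.5) scale (x axis), with its 95% interval from limma, from the highest at the top to the lowest. Dusp4, Dusp10, Dusp2 and Dusp1 lie to the right of 0 with their whole intervals, the other 6 intervals include 0, and the dashed line marks the median of all genes tested, 0.08.

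The Sprouty transcripts varied more between replicates than between treatments. Spry1, encoding an inhibitor of Ras signalling that is induced on T cell activation, had 12.3, 7.28, 5.10 and 17.3 FPKM in OVA-T4 + TGFβ replicates 1 to 4, against 13.3, 7.74, 6.12 and 18.3 FPKM in OVA-T4 replicates 1 to 4 (ENSMUSG00000037211, chr3:37639947-37644598, plus strand). The highest library exceeded the lowest 3.40-fold with OVA-T4 + TGFβ and 2.99-fold with OVA-T4, and in both groups replicates 4 and 1 were the high ones. Of the squared deviations of Spry1 from its overall mean, on the log2 scale, 98.7% lay between replicate numbers and 1.05% between treatments, while over all genes tested the median share was 24.2% between replicate numbers and 57.2% between treatments. Of the other members, Dusp2 (97.2%), Dusp4 (98.3%) and Dusp10 (98.7%) had nearly all of theirs between treatments. Spry2 had 71.7% between replicate numbers, Dusp5 68.1%, Spred2 50.5% and Spred1 50.3%. There are more replicate numbers than treatments, so replicate numbers take the larger share even where neither has an effect. The shares of Spred1 and Spred2 therefore do not show a pattern by replicate number. The log2 fold change was -0.13 with a 95% interval of -1.06 to 0.81 (limma, adjusted p = 0.817), and it turned to 0.15 without OVA-T4 + TGFβ replicate 3 and to 0.13 without OVA-T4 replicate 4. Within replicate numbers 1 to 4 the log2 differences were -0.11, -0.08, -0.24 and -0.07, lower with TGFβ in 4 of 4.

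Spry2, its close relative (ENSMUSG00000022114, chr14:105891947-105896819, minus strand), was the scarcest member. It had 1.34, 1.15, 0.486 and 2.06 FPKM in OVA-T4 + TGFβ replicates 1 to 4, against 2.17, 1.58, 1.18 and 2.53 FPKM in OVA-T4 replicates 1 to 4, which came from 40 to 154 reads with OVA-T4 + TGFβ and 102 to 219 reads with OVA-T4. As with Spry1, replicates 4 and 1 were high in both groups, and each library with TGFβ was below the library of its number without it. On the log2 scale the fold change was -0.47 with a 95% interval of -1.14 to 0.20 (limma, adjusted p = 0.211), so Spry2 was not called. Leaving out OVA-T4 + TGFβ replicate 3, its lowest library, gave -0.22, and over the 8 omissions the range was -0.68 to -0.22. With the replicate number as a block the same log2 fold change passed (limma, adjusted p = 0.0201), as it did for 25.4% of all genes tested in the lower direction, and quantile normalization gave -0.74 (limma, adjusted p = 0.0459). The pseudocount of 0.5 FPKM understates fold changes at such low levels.

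Replicates 4 and 1 were the high libraries of each group in other transcripts too. The summed macrophage and monocyte markers were 47.8, 19.0, 11.0 and 39.1 FPKM in OVA-T4 + TGFβ replicates 1 to 4 and 13.5, 7.20, 4.85 and 13.7 FPKM in OVA-T4 replicates 1 to 4, and none of its 10 genes was at 0 in all libraries. The order of replicates 4, 1, 2 and 3, from high to low in both groups, was shared by Spry1, Spry2 and Dusp2 among the members and by 3.65% of all genes tested. Whether other cells in the cultures take part in the levels of Spry1 and Spry2 was not tested. The genes whose levels ran closest to Spry2 over the 8 libraries were 2310061I04Rik (Pearson r = 0.9718), Mocs3 (r = 0.9708) and Lrrc24 (r = 0.9703), none of them called.

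**Figure D3:**
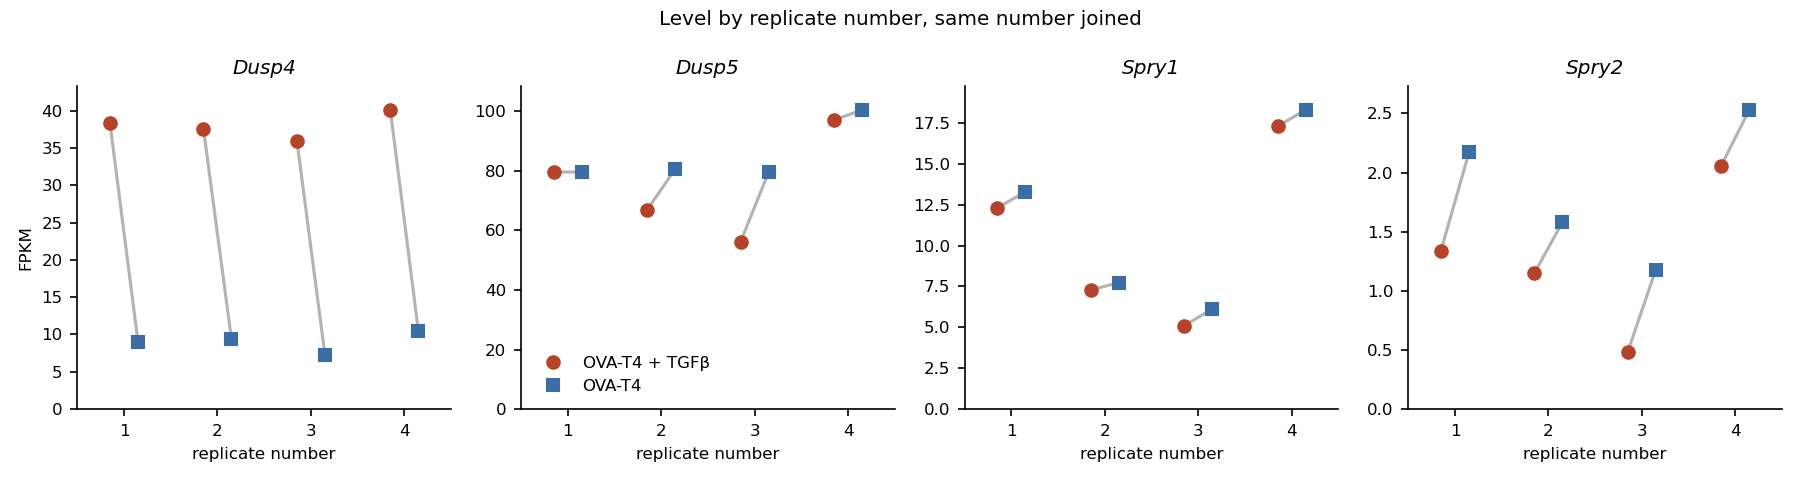
FPKM (y axis, from 0) of Dusp4, Dusp5, Spry1 and Spry2 by replicate number (x axis), with a line joining the OVA-T4 + TGFβ library (circle) to the OVA-T4 library (square) of the same number. Dusp4 falls into separate levels by treatment, while Spry1 and Spry2 follow the replicate number and lie lower with TGFβ within each replicate number.

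Spred1 and Spred2, encoding membrane proteins that keep Ras from activating Raf, were not called. Spred1 had 4.39, 4.93, 4.45 and 4.84 FPKM in OVA-T4 + TGFβ replicates 1 to 4, against 5.70, 5.70, 3.96 and 6.18 FPKM in OVA-T4 replicates 1 to 4 (ENSMUSG00000027351, chr2:117121374-117182279, plus strand). The OVA-T4 libraries other than replicate 3 were above every library with TGFβ. The log2 fold change was -0.18 with a 95% interval of -0.47 to 0.11 (limma, adjusted p = 0.276), which moved to -0.11 without OVA-T4 replicate 4. It passed without OVA-T4 replicate 3, at -0.30 with limma's adjusted p = 0.0195, and with quantile normalization, at -0.40 with limma's adjusted p = 0.0160.

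Spred2 had 8.32, 9.44, 8.34 and 8.33 FPKM in OVA-T4 + TGFβ replicates 1 to 4, against 9.36, 10.1, 9.73 and 8.60 FPKM in OVA-T4 replicates 1 to 4 (ENSMUSG00000045671, chr11:19924375-20024026, plus strand). It was lower with TGFβ within each of the 4 replicate numbers, but the groups overlapped. The log2 fold change was -0.13 with a 95% interval of -0.30 to 0.04 (limma, adjusted p = 0.189), and quantile normalization gave -0.29 (limma, adjusted p = 0.0251). Summed over both Sprouty and both Spred transcripts, the level averaged 25.0 FPKM with OVA-T4 + TGFβ and 28.1 FPKM with OVA-T4, a ratio of 0.891 (range 18.4 to 32.6 FPKM with OVA-T4 + TGFβ, highest 35.6 FPKM with OVA-T4), while the 6 Dusp transcripts together had a ratio of 1.52.

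The relatives of the members in the same families were called in both directions, as were all genes tested (30.7% higher, 20.2% lower, median log2 fold change 0.08), the shares against which each list below is set. Counts under another setting go with those of all 12879 genes under it. These were 3129 higher and 3460 lower with median of ratios scaling, 2987 and 3400 with quantile normalization, and 4569 and 3266 with the replicate block. Among 4 other MAP kinase phosphatases, Dusp7, encoding a cytoplasmic ERK phosphatase related to that of Dusp6, fell with TGFβ. It had 17.6, 16.4, 14.2 and 17.4 FPKM in OVA-T4 + TGFβ replicates 1 to 4, against 32.1, 27.9, 26.2 and 35.2 FPKM in OVA-T4 replicates 1 to 4, a log2 fold change of -0.86 (SE 0.10, limma, adjusted p = 1.58e-04). Dusp16, encoding a JNK phosphatase, had 4.80 ± 0.293 FPKM with OVA-T4 + TGFβ and 4.43 ± 1.03 FPKM with OVA-T4 (SD, n = 4 each) and was not called. Dusp9 was low and not called, and Dusp8 was too low to be tested. Of 12 further dual-specificity phosphatases 8 were tested, with Dusp14 called higher (0.61, limma, adjusted p = 0.0156, not called with quantile normalization) and Dusp22, a phosphatase that restrains Lck in T cells, called lower (-0.47, limma, adjusted p = 0.0105). Spry3, Spry4 and Spred3 were all below the level tested. Spry4 reached 0.116 FPKM at most with OVA-T4 + TGFβ and 0.199 FPKM at most with OVA-T4.

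Upstream of the members' targets, transcripts of the kinase chain moved both ways. Of 10 genes for Ras, Raf, MEK and ERK, 5 rose and 2 fell, beside 30.7% and 20.2% of all genes tested, with a median log2 fold change of 0.07, and median of ratios scaling gave 4 higher and 4 lower. Mapk3, encoding ERK1, averaged 83.2 ± 6.75 FPKM with OVA-T4 + TGFβ and 50.9 ± 4.64 FPKM with OVA-T4 (SD, n = 4 each), a log2 fold change of 0.70 (SE 0.08, limma, adjusted p = 1.06e-04). The MEK genes Map2k1 (-0.08) and Map2k2 (-0.06) were not called, although median of ratios scaling called both lower, Map2k1 at -0.18 and Map2k2 at -0.17. Araf (0.37), Braf (0.34) and Nras (0.17) were higher and Hras (-0.51) was lower, all as log2 fold changes. The call of Nras was lost with median of ratios scaling and that of Braf with quantile normalization.

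Among 12 Ras exchange factors and adaptors 10 were tested, of which 5 rose and 1 fell (30.7% and 20.2% of all genes), with a median of 0.23. Rasgrp1, encoding the factor that loads Ras with GTP below the T cell receptor, averaged 99.8 ± 5.07 FPKM with OVA-T4 + TGFβ and 46.7 ± 3.62 FPKM with OVA-T4 (SD, n = 4 each), a log2 fold change of 1.09 (SE 0.07, limma, adjusted p = 3.20e-06). Its relatives Rasgrp4 (2.12) and Rasgrp2 (0.99) rose too, and Ptpn11, encoding the phosphatase SHP-2, was lower (-0.17), a call lost with TPM scaling. Of 10 Ras GTPase-activating proteins, which switch Ras off, 3 rose and 2 fell (median 0.12), shares close to those of all genes, with Rasa3 at 182 ± 23.0 FPKM with OVA-T4 + TGFβ and 79.2 ± 9.58 FPKM with OVA-T4 (SD, n = 4 each). Transcripts of both the activators and the inactivators of Ras were thus among those that rose. Rasa4 (1.00) was also higher and Rasal1 (-0.95) lower.

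The other ERK scaffolds and brakes had 5 genes higher and 4 lower of 13 tested, beside 30.7% higher and 20.2% lower of all genes, with a median of -0.09. The balance turned to 4 higher and 6 lower with median of ratios scaling, and to 5 higher and 6 lower with quantile normalization and with the replicate block. Pea15a (0.87), encoding a protein that holds ERK in the cytoplasm, and Ptpn22 (0.60), encoding a phosphatase that restrains T cell receptor signalling, were higher. Ksr1 (-0.66), encoding a scaffold of Raf, MEK and ERK, was lower. The others of this list called lower were Pebp1 (-0.56), Ptpn7 (-0.55) and Ppp2ca (-0.21), the call of Ppp2ca being lost with TPM scaling. Of 9 effector kinases tested, 4 were higher and 5 not called (median 0.08, that of all genes), with Mapkapk3 (1.55), Mknk2 (0.72) and Rps6ka4 (0.26) the largest. Median of ratios scaling left 2 higher and called 2 lower, quantile normalization left 2 higher and 0 lower, and the call of Rps6ka4 was lost with both. Of 14 genes tested for p38, JNK and their activators, the kinases that the Dusp10 product acts on, 4 were higher and 2 lower (3 and 3 with median of ratios scaling), with a median of 0.07. Gadd45g, encoding an activator of MAP3K4 and so of p38 and JNK, averaged 22.7 ± 1.02 FPKM with OVA-T4 + TGFβ and 4.90 ± 1.35 FPKM with OVA-T4 (SD, n = 4 each), a log2 fold change of 2.14 (SE 0.17, limma, adjusted p = 1.56e-05). Mapk9 (0.41), Map3k7 (0.41) and Map2k4 (-0.34) were the others with the largest differences.

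Early genes that ERK is known to induce, listed together with the transcription factor genes Elk1, Elk3, Elk4 and Srf, did not share a direction. Elk1, Elk3 and Elk4 were called higher and Srf lower, so the counts of this list are not of induced early genes alone. Of 20 tested, 11 were higher and 3 lower, with a median log2 fold change of 0.34, beside 30.7% higher, 20.2% lower and a median of 0.08 over all genes tested. The counts were 9 and 4 with median of ratios scaling and 13 and 5 with the replicate block. Phlda1 (1.92) and Elk3 (1.39), which encodes an ETS factor that ERK phosphorylates, rose, and Myc fell by 1.46 on the log2 scale, to 48.3 ± 11.8 FPKM with OVA-T4 + TGFβ, against 132 ± 25.6 FPKM with OVA-T4 (SD, n = 4 each). Among the others, Ier3 (0.90), Fosb (0.76), Fosl2 (0.56), Ier5 (0.54), Mcl1 (0.52), Ier2 (0.40) and Junb (0.21) were higher. The calls of Fosl2 and Junb were lost with median of ratios scaling, and that of Fosl2 also with quantile normalization. Fosl1 (-0.80) and Srf (-0.26) were lower, and the Egr genes, Fos and Nr4a1 were not called. Egr1 averaged 25.0 ± 2.93 FPKM with OVA-T4 + TGFβ and 21.7 ± 3.45 FPKM with OVA-T4 (SD, n = 4 each), Egr2 had a log2 fold change of 0.01, Fos of 0.10, Egr3 of -0.23 and Nr4a1 of 0.29. With the replicate number as a block Egr1 (limma, adjusted p = 0.00759) and Nr4a1 (limma, adjusted p = 8.92e-04) were called higher and Egr3 (limma, adjusted p = 0.0361) lower. Over the 10 lists together, 97 of 114 genes were tested, 38 were higher and 16 lower, and their median log2 fold change was 0.16, beside 30.7% higher, 20.2% lower and a median of 0.08 over all genes. With median of ratios scaling the counts were 30 higher and 24 lower, with quantile normalization 33 and 22, and with the replicate block 44 and 22. All genes shifted with the setting too. Of all 12879 genes tested, 3129 were higher and 3460 lower with median of ratios scaling. Quantile normalization gave 2987 and 3400, and the replicate block 4569 and 3266.

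**Figure D4:**
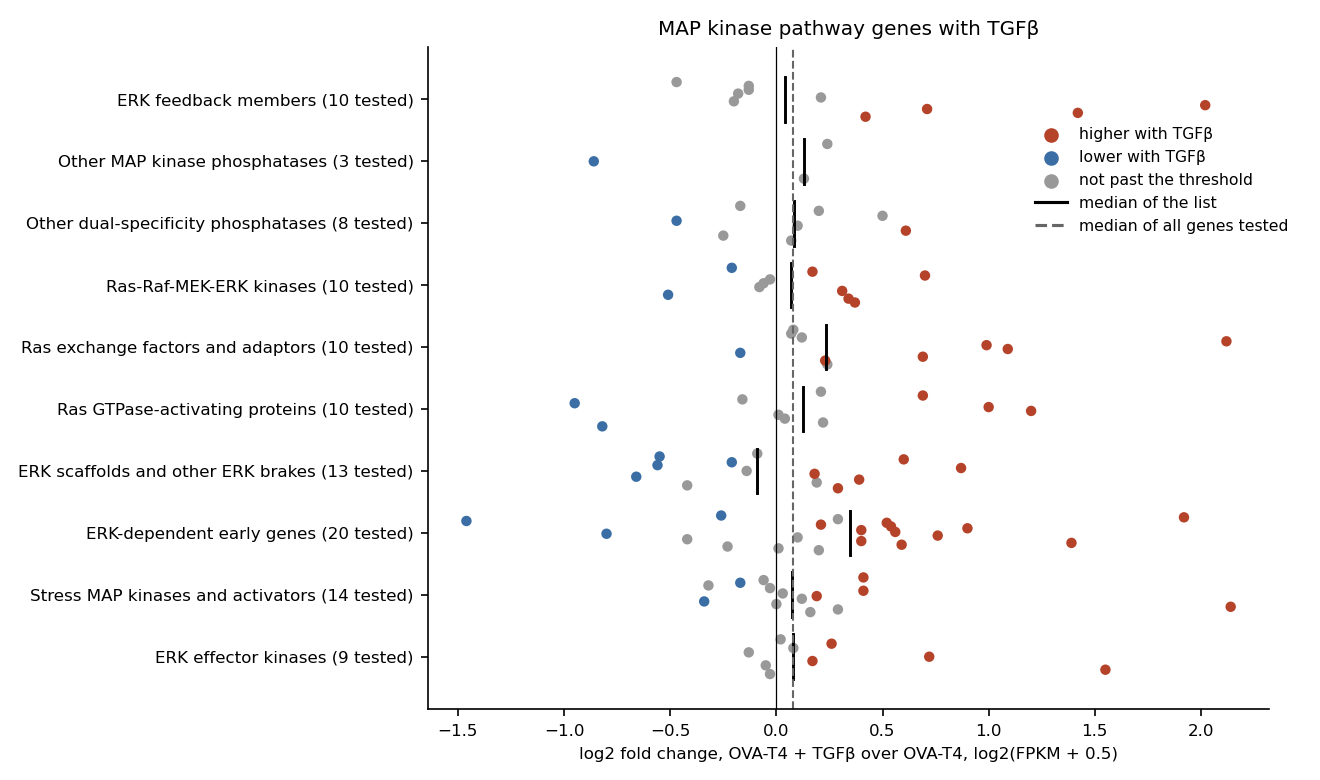
Log2 fold change, OVA-T4 + TGFβ over OVA-T4 (x axis), of each tested gene of the 10 members and of the MAP kinase pathway lists (rows), with called genes in colour, the median of each list as a short bar and that of all genes tested as a dashed line. Nearly every list holds genes on both sides of 0, and Dusp4 (2.02), Gadd45g (2.14), Rasgrp4 (2.12) and Phlda1 (1.92) lie farthest to the right.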

How the data were processed

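RNA of 8 cultures was sequenced after enrichment with oligo(dT), and the authors deposited 1 table of FPKM values per gene and library. Tools given in the submitters' processing notes are CASAVA, HISAT2 and HTSeq, with build mm10; versions, the annotation release, the gene lengths used and the strand setting of counting are not given in the sources used here. The methods and the sample labels name different RNA extraction kits. FPKM is scaled to library total and gene length, so a gene that takes many reads lowers all others. The authors tested counts with DESeq2; counts were not used here, and limma fitted the deposited unit instead.

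FPKM values were solved into whole reads (tolerance 0.005 reads or 9e-08 of the reads) for 100.0% of the 23842 genes above 0, using exon lengths of GENCODE M21, which held 98.9% of the gene IDs. Where no annotated length fitted, the smallest possible one was used, so reads may be understated. Differences on the log2(FPKM + 0.5) scale were tested two-sided with limma 3.58.1 (R 4.3.3), with a trended variance prior, no block and Benjamini-Hochberg adjustment over 12879 genes. Fold changes of FPKM are ratios of group means, and log2 fold changes are differences on the log2(FPKM + 0.5) scale. Exact permutation tests used SciPy 1.17.1 in Python 3.11.15.

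Replicates of a group were not alike within sampling noise (chi-square per gene of 7.73 to 41.8; r of 0.981 to 0.992). Libraries of the same replicate number deviated from their group means together, with correlations over the genes of 0.179 for number 1, 0.205 for number 2, 0.419 for number 3 and 0.505 for number 4, and of -0.489 to 0.254 between different numbers. Each same-number value was above 0.1, the threshold set for taking equal numbers as pairs, which no label states. OVA-T4 + TGFβ replicate 1 correlated more with OVA-T4 replicate 4 (0.246) than with its own number. OVA-T4 + TGFβ replicate 2 correlated more with OVA-T4 replicate 3 (0.239). These correlations cannot decide whether equal numbers are pairs, because for numbers 1 and 2 another number was closer. Values come from the fit without the block unless the block is named; with it, 4569 genes were higher and 3266 lower, against 3955 and 2607 without it.

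The 10 members, the 10 pathway lists and the 7 marker lists were chosen with earlier results of these data known, so they get no test as a set and no p adjusted over a list alone. Named beside the members are the genes of the smaller lists and of the Ras, Raf, MEK and ERK list, and of each other list the 3 called genes with the largest log2 fold change and the largest in the other direction, and the 3 genes closest in pattern to Dusp4 and to Spry2. Genes named outside this rule, chosen after their values were seen, are Egr1, Egr2, Egr3, Fos, Fosb, Fosl1, Fosl2, Ier2, Ier3, Ier5, Junb, Mcl1, Srf, Nr4a1, Elk1, Elk4, Pebp1, Ptpn7, Ppp2ca, the genes that overlap Dusp1 and Dusp10 and the marker genes. Alternatives were pseudocounts of 0.1 and 1, no filter or a mean of 1 FPKM, TPM, quantile and median of ratios scaling, an untrended or robust prior, limma voom on the solved reads, the replicate block and leaving out each library. Over all genes tested, the median log2 fold change was 0.077, and -0.034 after quantile normalization. A planned comparison of the proteins was not run here, and a few genes of the lists are counted but not reported by name.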

Additional observations from a re-analysis of the deposited data

Results flagged for a closer look

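In 2 of the 20 sets of 4 libraries, 1 for each member in each group, a library stood apart from the other 3 by Dixon's criterion, and chance alone marks about 1 in 20 sets. Dusp5 in OVA-T4 replicate 4 was 100.5 FPKM, while the other OVA-T4 libraries had 79.5 to 80.6 FPKM. Spred2 in OVA-T4 + TGFβ replicate 2 was 9.44 FPKM, while the other OVA-T4 + TGFβ libraries had 8.32 to 8.34 FPKM. Neither gene was called with or without that library, at log2 fold changes of -0.12 for Dusp5 and -0.17 for Spred2 without it.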

How the results depend on the processing

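Over 19 alternatives, Dusp4 (1.92 to 2.09), Dusp10 (1.32 to 1.47) and Dusp2 (0.61 to 0.82) stayed higher with TGFβ and called under each one, and Dusp1 (0.23 to 0.48) lost its call with quantile normalization alone (limma, adjusted p = 0.124). Of 190 member values, 181 kept direction and call, 1 lost its call, 6 gained one and 2 turned round. Calls were gained by Dusp6 without OVA-T4 replicate 4 (0.30), by Spred1 without OVA-T4 replicate 3 (-0.30), by Spry2 (-0.74), Spred1 (-0.40) and Spred2 (-0.29) with quantile normalization, and by Spry2 with the replicate block (-0.47, limma, adjusted p = 0.0201). The block changed no other member's call. Those that turned round were Spry1 without OVA-T4 + TGFβ replicate 3 (0.15) and without OVA-T4 replicate 4 (0.13), and leaving out each library in turn gave -0.41 to 0.15. The causes were not tested. Calls higher with TGFβ were 60.3% of all calls, against 47.5% with median of ratios, 46.8% with quantile and 65.1% with TPM scaling. Of 380 list counts under the alternatives, 364 stayed within 1.5 times the value given. Depth limits Spry2 most, with 40 reads in its lowest library.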
